A study of Mus musculus with 3 samples.

Results

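ESRRA ChIP-seq peaks were examined at 36 nuclear genes for subunits of respiratory complex I. These genes were chosen by symbol and not by any measured value, though with earlier results of these data known. The core subunits encoded by mitochondrial DNA were not analysed here. A gene was linked to a peak when the midpoint of the peak lay within 30 kb of one of its annotated transcription start sites, and genes without such a peak were kept. Of the 36 genes, 16 were linked, each to 1 peak, and these were 16 of the 1639 peaks in the list. The chromatin came from villus cells of the duodenal epithelium of adult wild-type C57BL/6 mice fed regular chow, double cross-linked with disuccinimidyl glutarate and formaldehyde. The series holds 2 ESRRA ChIP libraries and 1 input library, and the authors called peaks on the merged ChIP reads, so that no value below has a replicate error and no peak has a height or p-value here. A peak list holds no expression, and the labelled cell type could not be checked against marker genes. The tissue was neither an Esrra mutant nor treated, and no groups of mice were compared. Every peak was 601 bp wide, so the width says nothing about the extent of binding.

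Complex I, or NADH:ubiquinone oxidoreductase, is the entry point of electrons from NADH into the mitochondrial respiratory chain. It is shaped like an L, with a matrix arm that carries the flavin and the iron-sulfur clusters and a membrane arm that pumps protons. Core subunits are shared with bacteria and do the catalysis, whereas accessory subunits surround them and serve assembly and stability. ESRRA is an orphan nuclear receptor known for activating genes of oxidative metabolism and mitochondria. It binds the half-site AAGGTCA, most strongly when extended to TCAAGGTCA.

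The half-sites are shown first, because they are the sequence to which ESRRA is known to bind. AAGGTCA was present on either strand in 8 of the 16 complex I peaks, with 12 copies in all. Each sequence below is read 5′ to 3′ on the strand of the half-site, with the 7 bases of AAGGTCA and the 2 bases before them in capitals and 10 bases on each side.
Ndufs8: cccagacttcATAAGGTCAgcggtgacac
Ndufs8: ccctacaggtCAAAGGTCAcaagagggcg
Ndufs8: catcatttgcCCAAGGTCActctgcaggt
Ndufa12: gaaaacttgcCCAAGGTCAccgtgagggg
Ndufb2: gggagcagcaGTAAGGTCAgccaagagca
Ndufb5: tcggaggtccCCAAGGTCAcctggaaaca
Ndufc1: tcgcggccagTGAAGGTCActgcaggtcg
The bases before the half-site differed, and CC was found in Ndufs8, Ndufa12 and Ndufb5 and also in Ndufa6, whose peak lay beyond 1 kb and is not shown. In the order shown, the Ndufs8 copies lay 85, 309 and 451 bp downstream of its start site (mm9, chr19:3912627-3912635, chr19:3912405-3912413 and chr19:3912263-3912271), where the transcript annotation has a noncoding part of an exon and, for the other two, an intron. The Ndufa12 copy (chr10:93662154-93662162) was in an intron of the gene, 375 bp downstream of the nearest start site. The Ndufb2 copy (chr6:39542381-39542389) was 201 bp upstream of the start site, where the neighbouring gene Adck2 has an intron. The Ndufb5 copy (chr3:32636180-32636188) was in an intron, 134 bp downstream. The Ndufc1 copy (chr3:51212668-51212676) was also in an intron, 87 bp upstream of the nearest of its 3 start sites. Each of these 29-base stretches occurred 1 time in the genome.

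Ndufb4 had the densest group of half-sites, and its part of the peak is shown at length because it lies wholly outside annotated exons. The stretch of 103 bases (mm9, chr16:37654804-37654906, minus strand, which is the strand of the gene) runs from 367 to 265 bp upstream of the start site, with the 3 half-sites and the 2 bases before each in capitals.
Ndufb4: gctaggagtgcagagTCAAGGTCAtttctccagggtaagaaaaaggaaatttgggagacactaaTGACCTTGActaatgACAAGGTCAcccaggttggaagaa
The copies at its ends read in the direction of the gene, and the middle copy is on the other strand, where it reads TCAAGGTCA. They lay 44, 3 and 20 bp from the midpoint of the peak in this order. Ndufb4 encodes an accessory subunit of the membrane arm.

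A different arrangement was seen at Ndufs8, the core subunit with a pair of iron-sulfur clusters on the path to ubiquinone. One of its half-sites was the second copy in a direct repeat of the hexamer AGGTCA with 1 base between, shown here with both copies in capitals (mm9, chr19:3912405-3912417, minus strand, in an intron).
Ndufs8: acccctacAGGTCAaAGGTCAcaagaggg
This repeat is a form to which several nuclear receptors are known to bind as dimers. It was found in 6 of all 1639 peaks (0.366%), and Ndufs8 was the only complex I peak among them. It was chosen for counting after the Ndufs8 peak had been read.

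The other 8 complex I peaks held no AAGGTCA. For the 7 of them that lay within 1 kb of the start site, the 9 bases closest to TCAAGGTCA are shown in capitals, to let the departures be read, and where several were equally close the one nearest to the midpoint was taken. These were picked out after the counts of the half-site had been seen.
Ndufs1: tggtacccagTCAAGGGCAagaggagaac
Ndufs3: ccacggagccCCAAGGGCAcggaccggaa
Ndufs7: ggcttgggctCCAAGGTCCccgcagcgcc
Ndufv1: ttcggagttgTGAAGGTGAcagccggagg
Ndufab1: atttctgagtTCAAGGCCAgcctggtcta
Ndufb9: cggcggccgcTGAAGGTGAgccggacgct
Ndufc2: atagttggagTCGAGGTCAaacctctcgt
Of these, Ndufs1, Ndufab1 and Ndufc2 had 1 mismatch to TCAAGGTCA and Ndufs3, Ndufs7, Ndufv1 and Ndufb9 had 2. Matches with at most 2 mismatches were found in 93.1% of all peaks and thus say little. A match with at most 1 was found in 46.3% of all peaks and in 12 of the 16 complex I peaks (75%). Among core peaks it was found in 2 of 5 (40%). The 12 include the match at Ndufab1. Such matches were not counted in peaks near start sites alone, so the 2 shares compare unlike sets of peaks. The 29 bases at Ndufab1 occurred 12382 times in the genome and lay 273 bp from the midpoint, whereas each of the other 6 stretches occurred 1 time. The sequences shown for Ndufs1 (chr1:63223053-63223061) and Ndufs3 (chr2:90744858-90744866) lay 46 and 19 bp from the midpoint, in noncoding parts of exons. The Ndufs7 sequence (chr10:79712299-79712307) was 87 bp from the midpoint, in an intron, and the Ndufv1 sequence (chr19:4012653-4012661) was 123 bp from it, in a noncoding part of an exon. Those for Ndufab1 (chr7:129244883-129244891), Ndufb9 (chr15:58765374-58765382) and Ndufc2 (chr7:104548665-104548673) were in an intron and, for the last 2, in noncoding parts of exons.

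The first comparison asked how many complex I genes lay near an ESRRA peak. A peak was within 30 kb of 16 of 36 genes (44.4%), where the same was found for 1954 of 22225 protein-coding genes (8.79%). Within 1 kb of a start site, the distance used here for a promoter, the count was 14 of 36 (38.9%) against 464 of all protein-coding genes (2.09%). Among the 6 core subunit genes 5 were linked (83.3%), and among the 29 accessory genes 11 were linked (37.9%). The core gene without a peak was Ndufv2, which encodes an iron-sulfur subunit next to the flavin subunit, and its nearest peak was 2976.2 kb away. Accessory subunits of the matrix arm had a peak in 4 of 9 genes and those of the membrane arm in 6 of 19 genes. Ndufab1, the mitochondrial acyl carrier protein that joins both arms, had a peak. Ndufa4, which was first described as a complex I subunit and is now placed in cytochrome c oxidase, had none. With 6 core genes, 1 gene more or less moves the core share widely, and the difference between core and accessory genes was not tested.

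**Figure D1:**
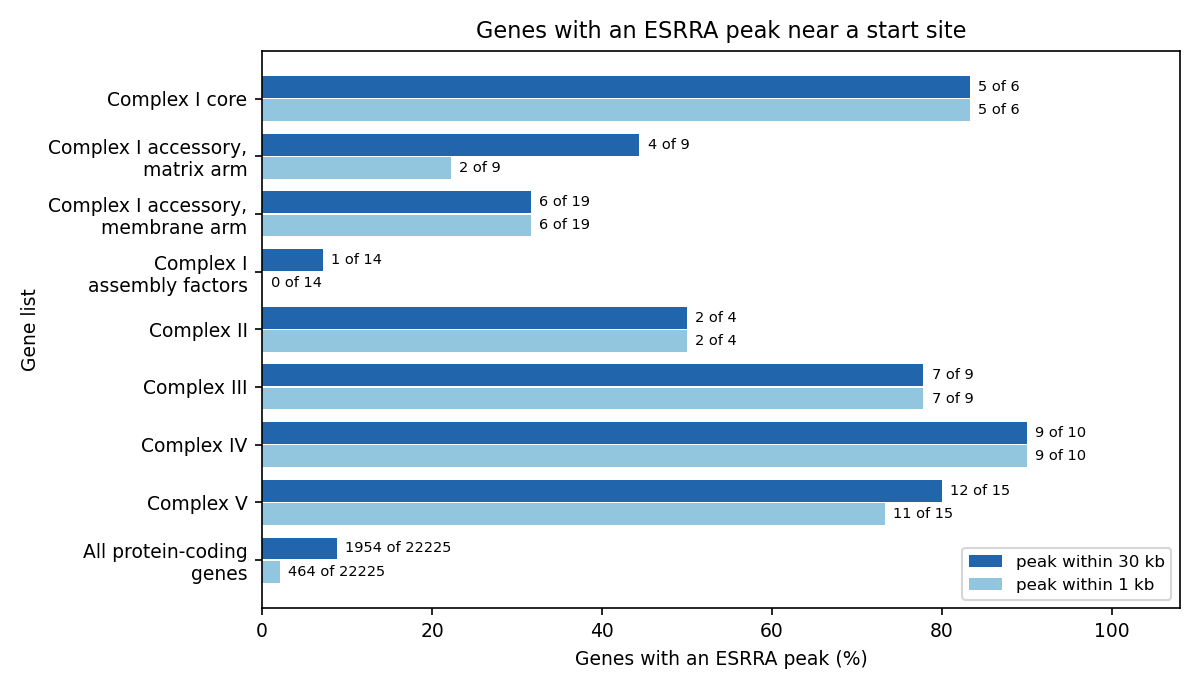
Share of genes (%, x axis) with an ESRRA peak midpoint within 30 kb (dark bars) or 1 kb (light bars) of a start site, for each gene list on the y axis, with the counts beside the bars. The complex I core genes stood at 5 of 6, the accessory genes of the matrix and membrane arms at 4 of 9 and 6 of 19, and all protein-coding genes at 1954 of 22225 for 30 kb.

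The core subunit peaks all lay at promoters, within 230 bp of a start site. Ndufv1 encodes the flavin-bearing subunit that takes electrons from NADH, and its peak (mm9, chr19:4012234-4012834) was centred in an intron, 127 bp downstream of the nearest of 11 start sites. Ndufs1, the large iron-sulfur subunit next to it, had a peak (chr1:63222711-63223311) centred 230 bp downstream, in a noncoding part of an exon. Ndufs7 carries the last iron-sulfur cluster before ubiquinone, and its peak (chr10:79711916-79712516) was centred 11 bp downstream of the nearest of 6 annotated start sites and 350 bp downstream of the most upstream one. The Ndufs8 peak (chr19:3912247-3912847) was centred 170 bp downstream of the only start site, in a noncoding part of an exon. Ndufs3, a core subunit at the ubiquinone end of the matrix arm, had a peak (chr2:90744581-90745181) centred 22 bp upstream of the nearest start site and 103 bp downstream of the most upstream one. Kbtbd4, which encodes an adaptor of a ubiquitin ligase and runs the other way, has a start site nearer still, at 16 bp. The peak thus cannot be given to Ndufs3 or Kbtbd4 from its position.

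Among accessory genes of the matrix arm, the 4 linked peaks lay between 125 and 2846 bp from a start site, and 2 of them were at promoters. The Ndufa12 peak (chr10:93661751-93662351) was centred 269 bp downstream of the nearest start site, in an intron. Ndufa12 is related to an assembly factor that it replaces late in assembly. Ndufa6, a member of the LYR protein family that binds the acyl carrier protein, had a peak (chr15:82183343-82183943) 1078 bp downstream of its only start site, in an intron. This peak had the lowest GC content of the 16, at 42.9%, and held 1 AAGGTCA 49 bp from its midpoint. Ndufs6, a zinc-binding subunit of the NADH-oxidising end, was linked to a peak (chr13:73468536-73469136) centred 2846 bp upstream of its start site. That midpoint lay in a coding exon of Mrpl36, a mitochondrial ribosomal protein gene, 379 bp downstream of the Mrpl36 start site, so that Mrpl36 was the nearer gene. The peak held no AAGGTCA. The Ndufa2 peak, 125 bp downstream of the start site in a coding exon, held TCAAGGTCA 55 bp from its midpoint, and no sequence is shown for it. Ndufa2 and Ndufb4 were the complex I genes whose peaks held TCAAGGTCA.

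In the membrane arm all 6 linked peaks were within 303 bp of a start site. The peaks of Ndufb9 (chr15:58765052-58765652) and Ndufc1 (chr3:51212292-51212892) were centred 13 and 6 bp upstream of the nearest start site. Ndufb9 encodes another LYR protein. The Ndufb2 peak (chr6:39542319-39542919) was centred 32 bp downstream, in a coding exon. The Ndufc2 peak (chr7:104548537-104549137) was centred 224 bp downstream, in a coding exon, and the Ndufb5 peak (chr3:32635920-32636520) 171 bp downstream, in an intron. Ndufb5 shares its promoter with Mrpl47, a gene of the mitochondrial ribosome, whose start site was 151 bp from the midpoint and hence nearer. The Ndufb4 peak (chr16:37654542-37655142) was centred 303 bp upstream and lay outside every protein-coding gene. The Ndufab1 peak (chr7:129244860-129245460) was centred 60 bp downstream of the nearest start site, in an intron.

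**Figure D2:**
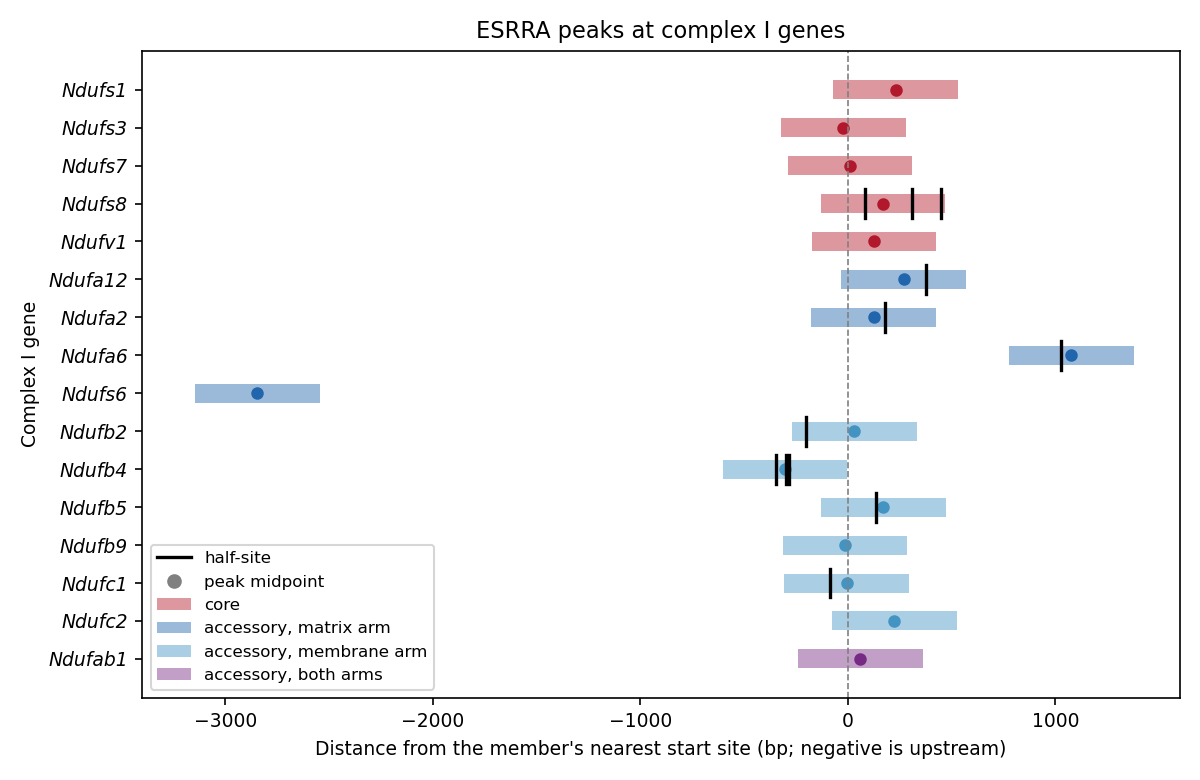
Position of each linked ESRRA peak (bar, 601 bp wide, with its midpoint as a dot) relative to the nearest start site of its complex I gene (x axis, bp, negative is upstream), with AAGGTCA half-sites as black ticks, and core genes in red, accessory genes of the matrix and membrane arms in dark and light blue and Ndufab1 in purple. The bars of 14 genes lie around the start site, Ndufa6 lies 1078 bp downstream and Ndufs6 2846 bp upstream, and 1 of 5 core peaks (Ndufs8) holds a tick.

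The 20 genes without a peak came from all classes other than the acyl carrier protein. They were Ndufv2 among the core genes, Ndufa5, Ndufa7, Ndufa9, Ndufs4 and Ndufv3 in the matrix arm, Ndufa1, Ndufa3, Ndufa8, Ndufa10, Ndufa11, Ndufa13, Ndufb3, Ndufb6, Ndufb7, Ndufb8, Ndufb10, Ndufb11 and Ndufs5 in the membrane arm, and Ndufa4. Only Ndufv3, which is found in isoforms that differ between tissues, had a peak within 100 kb, at 40.7 kb and thus beyond the limit. The nearest peaks of the other 19 genes were between 123.6 kb (Ndufb10) and 2976.2 kb (Ndufv2) away. The absence of a peak says that no region passed the threshold of the authors in the merged reads, not that ESRRA was absent.

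Linked peaks lay close to the start sites. The distance from the midpoint to the nearest start site of the gene had a median of 148.5 bp and ranged from 6 to 2846 bp, whereas the median over all 1954 linked protein-coding genes was 8811 bp. Among linked genes the peak was within 1 kb for 14 of 16 complex I genes (87.5%) and for 464 of 1954 protein-coding genes (23.7%). No complex I gene had a peak between 2846 bp and 30 kb. Just beyond the limit lay a further peak of Ndufv1 at 34020 bp and the peak of Ndufv3 at 40715 bp. The median was 127 bp for the 5 core genes and 171 bp for the 11 accessory genes, with overlapping ranges (11 to 230 bp and 6 to 2846 bp).

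**Figure D3:**
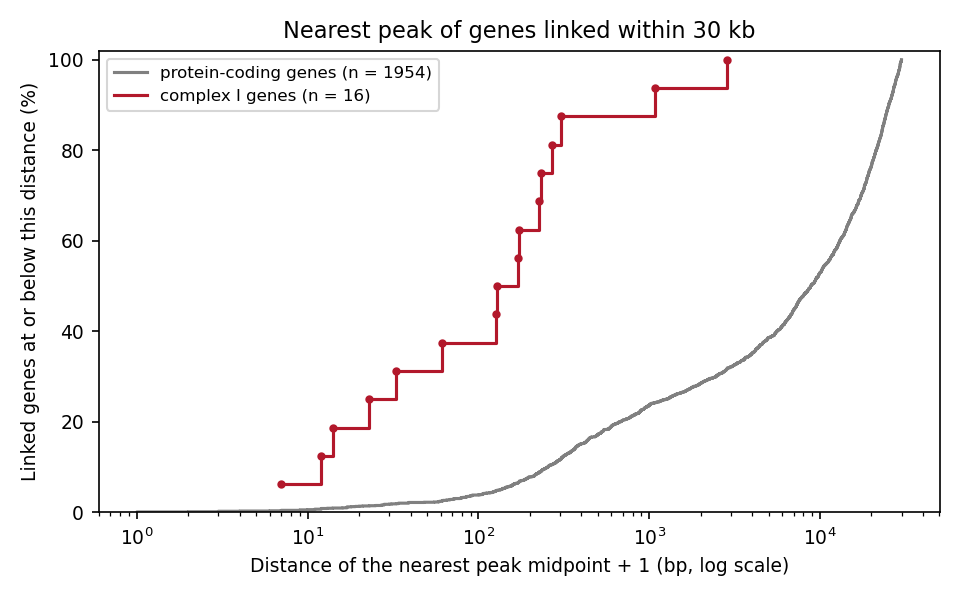
Cumulative share of linked genes (%, y axis) by the distance from a start site to the nearest peak midpoint (x axis, bp plus 1, log scale), for 16 complex I genes (red, 1 dot per gene) and 1954 protein-coding genes (grey). The complex I curve reaches 87.5% below 1 kb, where the curve of all linked genes is at 23.7%.

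The midpoints lay mostly inside the genes. Measured from the most upstream start site of each gene, 13 of 16 midpoints were downstream and 3 were upstream (Ndufb4, Ndufb9 and Ndufs6). Among genes with a peak within 1 kb of that site the share downstream was 12 of 14 for complex I (85.7%) and 67.1% of 383 protein-coding genes. The choice of the most upstream site favours downstream positions. From the nearest start site, the share was 10 of 14 for complex I (71.4%) and 59.3% of 464 protein-coding genes. These differences were not tested. By the annotation, 6 midpoints were in introns, 4 in coding exons, 4 in noncoding parts of exons and 2 outside protein-coding genes. Exons were those of all transcripts of protein-coding genes, including transcripts without a coding sequence.

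The complex I peaks were single. None had another peak within 30 kb, where 73.3% of linked protein-coding genes were isolated in this way. A single peak was found for 16 of 16 linked genes, where 76.6% of linked protein-coding genes had a single one. The median copy number of the 24-base words of each peak was 1, and a median above 10 copies was found in 3.84% of the 443 peaks within 1 kb of a protein-coding start site and in 19.8% of all peaks. A median of 1 leaves room for repeated stretches, such as the one at Ndufab1. The median GC content was 59.7% (42.9 to 65.1%), against 56.7% in the 443 promoter peaks and 48.8% in all peaks. Of the 16 peaks, 6 lay within 1 kb of a start site of another protein-coding gene. The share of all promoter peaks near a second gene is not given here, so these 6 cannot be called many or few. At Ndufb5, Ndufs3 and Ndufs6 the other gene was the nearer one. At Ndufa2, Ndufb9 and Ndufs1 the complex I gene was the nearer one, but its peak was likewise shared by position.

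The second comparison asked how often the peaks held the half-site. AAGGTCA was in 8 of 16 complex I peaks (50%), in 44.0% of all peaks, in 51.9% of the 443 peaks within 1 kb of a protein-coding start site and in 3 of 32 windows of the same width placed 2 kb to each side of the complex I peaks (9.38%). The same windows beside all peaks held it in 12.6%. TCAAGGTCA was in 2 of 16 complex I peaks (12.5%), in 17.6% of the 443 promoter peaks and in 14.3% of all peaks. Neither share of the complex I peaks was above that of promoter peaks. By class, 7 of 11 accessory peaks held AAGGTCA (63.6%), and 1 of 5 core peaks did (20%), that of Ndufs8. The hexamer AGGTCA, which lies within AAGGTCA and is shared by many nuclear receptors, was in 12 of 16 complex I peaks (75%). It was in 69.1% of the 443 promoter peaks, in 61.4% of all peaks and in 40.6% of the 32 windows beside the complex I peaks. The peaks without it were those of Ndufs3, Ndufv1, Ndufab1 and Ndufb9. In the 8 peaks with AAGGTCA, the copy nearest to the midpoint was between 3 bp (Ndufb4) and 233 bp (Ndufb2) away, with a median of 68 bp, and the median over all 721 peaks with the half-site was 65 bp.

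Sequences of other factors known from promoters of respiratory chain genes were counted on both strands in the same way. CCGGAAG, the core of ETS family sites such as that of GABPA, was in 5 of 16 complex I peaks (31.2%), in 18.3% of all promoter peaks and in 8.05% of all peaks. Of the peaks that lack AGGTCA, those of Ndufs3 and Ndufb9 each held 2 copies, and those of Ndufv1 and Ndufab1 held none. The peaks of Ndufa6, Ndufc1 and Ndufs8, which hold AAGGTCA, each held 1 copy. AAGATGGC, a part of YY1 sites, was in the peaks of Ndufa2, Ndufc1 and Ndufs7 (18.8%) and in 7% of promoter peaks. GCATGCGC, a part of sites of the nuclear respiratory factor NRF1, was in the Ndufs8 peak alone (6.25%), with 2 copies, and in 2.93% of promoter peaks. The GC box GGGCGG was in 11 of 16 complex I peaks (68.8%) and in 53.3% of promoter peaks. CAAAGTCCA, a form of the HNF4 site, was in 0 of 16 complex I peaks and in 2.56% of all peaks, a share at which 16 peaks are too few to show an absence. With 16 peaks, 1 peak more or less moves a share by 6.25 percentage points, and these differences were not tested.

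**Figure D4:**
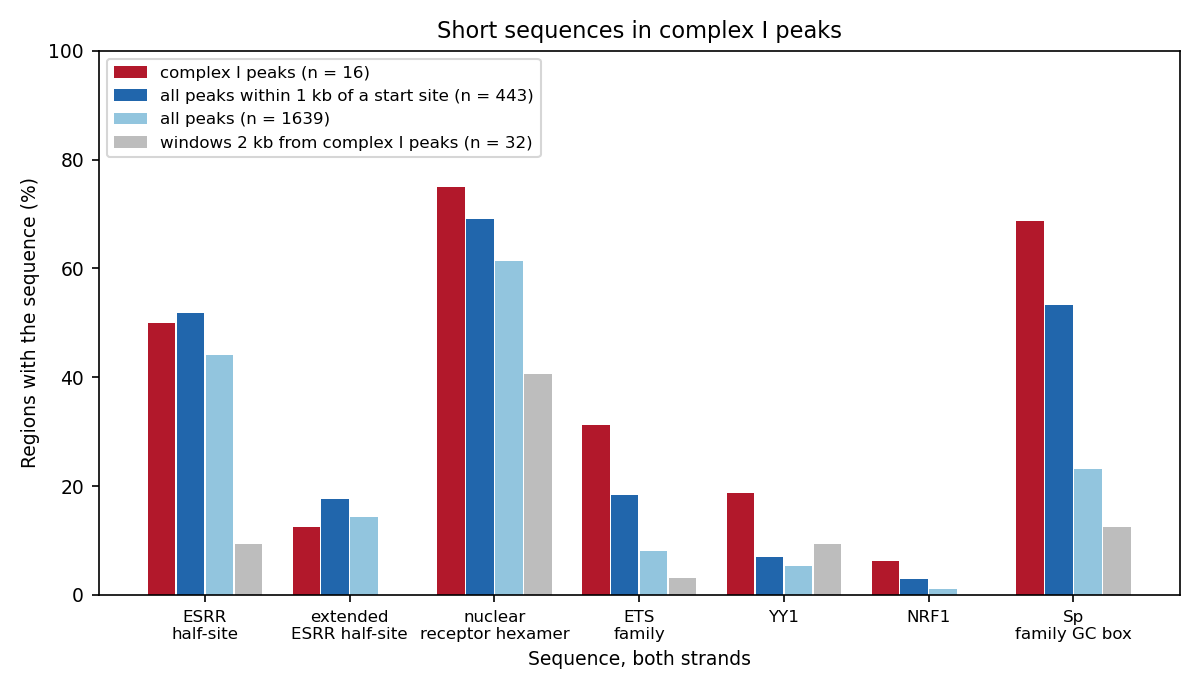
Share of regions (%, y axis) that hold each short sequence on either strand (x axis), for the 16 complex I peaks, all 443 peaks within 1 kb of a protein-coding start site, all 1639 peaks, and 32 windows of the same width 2 kb from the complex I peaks. The ESRR half-site stood at 50% in complex I peaks, 51.9% in promoter peaks and 9.38% in the neighbouring windows.

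The third comparison asked whether the half-site was in the promoter sequence of complex I genes with and without a peak. In a window of 300 bases on each side of the most upstream start site, AAGGTCA was in 8 of 16 genes with a peak (50%), in 3 of 20 genes without one (15%) and in 7.85% of all protein-coding genes. The genes without a peak that held it were Ndufa9, Ndufa11 and Ndufs5, at 135, 230 and -209 bp from the start site (negative is upstream). Among the 8 genes with a peak, Ndufs1 and Ndufs6 held it only outside the peak, at -232 and 112 bp. Their peaks themselves held no AAGGTCA. Ndufb4 held a copy outside its peak as well, at 33 bp, and another inside it, at -283 bp. TCAAGGTCA was in the window of 1 member, Ndufa2, and in 0.76% of all genes. The median GC content of these windows was 59.3% in genes with a peak, 58.9% in genes without one and 56.7% over all genes. The windows of genes with a peak within 1 kb overlap their peaks and so repeat in part the counts above.

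Set beside other genes of the respiratory chain, complex I had a lower share of linked genes than complexes III to V. The complex I share, 16 of 36 (44.4%), counts Ndufa4, which had no peak and is now placed in complex IV. Ndufa4 was in neither the core nor the accessory list. A peak within 30 kb was found for 7 of 9 genes of complex III (77.8%), 9 of 10 of complex IV (90%), 12 of 15 of complex V, the ATP synthase (80%), and 2 of 4 of complex II (50%). Their peaks were within 1 kb in 7, 9, 11 and 2 genes. The share of the complex I core genes, 5 of 6, was in the range of complexes III to V, whereas that of its accessory genes, 11 of 29, was below each of them and below complex II. Of 14 assembly factors of complex I, 1 was linked (7.14%), the gene now called Ndufaf8 (1810043H04Rik in the annotation), and none had a peak within 1 kb. Over all protein-coding genes the shares were 8.79% within 30 kb and 2.09% within 1 kb. The share of assembly factors was thus near that of all genes, and 14 genes are too few to show an absence. These lists were short and hand-written, and the differences between them were not tested.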

How the data were processed

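The deposited file was a peak list that gave only positions, as start and end coordinates in bp, without a score or signal. As the study and the submitters' processing notes describe it, the authors aligned reads to mm9 with Bowtie2 2.2.6, merged both ChIP libraries with SAMtools 0.1.19 and called peaks with MACS2 at a p-value of 1e-05. Merging hides peaks present in 1 library alone, and how all peaks came to have 1 width is not given in the sources used here. Read depth per sample is unknown from the list, so intervals that need it are not given.

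Start sites were those of GENCODE version M1 on NCBI build 37, which is mm9. A symbol with several gene records was counted once, which left 22225 protein-coding symbols. Sequences were read from the genome with pysam 0.24.0, and motifs were matched exactly on both strands. Older symbols of assembly factors were taken from RefSeq. Linking and matching were tested on simulated data, where 200 of 200 planted links among 1000 start sites and 200 of 200 planted motifs were recovered. No test was run, since genes and peaks are not replicates, and each count is set beside that over all genes or peaks. Every member gene was accounted for. A gene that is no member was named only where its start site was nearer to the peak midpoint than that of the member. Outside this rule, Adck2, whose intron holds a half-site, and Ndufaf8, the only assembly factor with a peak, were named after their values were seen. The members, lists and motifs were chosen with earlier results of these data known.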

Additional observations from a re-analysis of the deposited data

How the results depend on the processing

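The number of complex I genes with a peak within 30 kb (16) was also 16 at 10 kb (4.66% of all protein-coding genes), from the most upstream start sites (7.95%) and with peaks of at most 10 median copies (8.23%), and was 17 at 100 kb (19.8%), where the main share of all genes was 8.79%. It was 13 when each peak was given only to the nearest protein-coding gene (4.4% of all genes), which took it from Ndufb5, Ndufs3 and Ndufs6. Under the same 5 alternatives the core count was 4 or 5 and the accessory count 9 to 12, and the count within 1 kb was 14 or 15 under its 3. The median distance of 148.5 bp became 305.5 bp from the most upstream start site of each gene. The count of 8 peaks with AAGGTCA was 3 with TNAAGGTCA (20.4% of all peaks). The count of 11 member windows with AAGGTCA was 4 in the shorter window of 250 bases before to 50 after the start site (3.93% of all genes) and 1 with TCAAGGTCA, both by construction a stricter search. Without depth or scores, a weak peak could not be separated from a strong one. No stricter threshold and no fit without a replicate could be run on a merged list. No paired analysis was possible because the list was called on the 2 libraries combined.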
